A study of Mus musculus with 20 samples.

Results

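Gene expression in tissue enriched for sensory cortex was compared between 6 female C57Bl6 mice with experimental autoimmune encephalomyelitis (EAE) and 4 healthy female C57Bl6 mice. The arrays were chosen by their labels alone, as those of sensory cortex from EAE mice and from healthy mice, and make up 10 of the 20 arrays of the study. The other 10 arrays hold motor cortex of the same mice, whose values are given beside some of the results and enter the tests between the regions. EAE was induced at an age of 8 to 12 weeks. Each mouse received MOG35-55, a peptide of myelin oligodendrocyte glycoprotein, under the skin (100 µg in the rear flanks, 50 µg near the tail) and pertussis toxin (400 ng) on day 0 and again on day 3. The healthy mice lived in the same cages, and the labels describe no sham treatment, so that immunisation, pertussis toxin and disease differ together between the groups and cannot be told apart. The average clinical grades of the EAE mice were 2.50, 3.00, 2.75, 3.00, 3.50 and 3.50 for mice 1 to 6. They were taken between days 18 and 21, and the collection protocol names day 21. Mice 1 to 3 of the EAE group and mice 1 and 2 of the healthy group belonged to cohort 1, and the other 3 and 2 mice to cohort 2. All mice were perfused with saline and an RNA preservative before the forebrain was cut into slices of 1 mm and the region was dissected.

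EAE is a model of multiple sclerosis in which T cells primed against myelin enter the central nervous system, chiefly the spinal cord, recruit monocytes and neutrophils, and activate resident microglia and astrocytes. Interferon gamma from T cells induces the major histocompatibility complex (MHC) class II genes through the transactivator CIITA, and interferons of both types induce guanylate binding proteins and other antiviral effectors through STAT and IRF factors. The forebrain in such mice is also reached by circulating signals, among them cytokines and adrenal glucocorticoids, which act on endothelial cells and astrocytes.

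Values are log2 expression, so that a difference of 1 is a 2-fold change. Array medians lay between 8.22 and 8.32 and single values between 3.85 and 14.98. The tissue label was checked against markers of cortical neurons. No motor cortex values are set beside them, so that the check does not tell sensory from motor cortex. Slc17a7, the vesicular glutamate transporter of cortical excitatory neurons, had a mean of 12.74 in EAE and 12.87 in healthy mice, Gad1, the enzyme that makes GABA, between 13.05 and 13.54, and Rorb, a transcription factor of layer 4, between 11.71 and 12.12. The array of EAE mouse 3 stood apart from the other EAE arrays, with correlations of at most 0.992 to any of them across probe sets, against up to 0.998 within the groups. In bulk tissue, fewer cells of a type and less RNA per cell cannot be told apart. The labels number the mice but do not say more about how they were bred, and the p-values measure the spread between these mice.

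In sensory cortex of EAE mice the genes that rose included immune genes and vascular, astrocyte and hormone responsive genes, and those that fell included genes of microglial, endothelial and oligodendrocyte identity. Of 18193 genes tested with limma, 441 (2.42%) differed at an adjusted p under 0.05, of which 164 rose (0.901%) and 277 fell (1.52%). Among these, 23 rose and 4 fell by at least 2-fold. The 15 largest rises were those of Lcn2, H2-Aa, Cd74, Ccl12, S100a8, Plin4, Sult1a1, Etnppl, Lrg1, H2-Eb1, Ifi27l2a, Fcgr4, Cd52, Lyz1 and Ifit3. The 15 largest falls were those of Abi3bp, Serpinb1a, Gpr34, Tnnc1, Fabp7, P2ry12, Rpe65, Gm35161, Gadd45a, Gpr153, Pnma1, Hpgd, Apln, Myl4 and Lpar1. With quantile normalization the split was 194 rises and 183 falls, so that 51.5% of the called genes were higher, against 37.2% as reported. EAE and healthy values did not overlap for 1185 genes (6.51%), with 445 above (2.45%) and 740 below (4.07%), and 396 of the 441 called genes were among them.

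The rises differed in how evenly the 6 EAE mice shared them. Over the 164 genes that rose, the median SD between EAE mice was 0.15, against 0.10 between healthy mice and 0.12 between EAE mice over all genes. Lcn2, H2-Aa and Cd74 had SDs of 1.41, 1.03 and 0.79 on the log2 scale, whereas Plin4, Lrg1, Etnppl and Sult1a1 had SDs between 0.18 and 0.28. EAE mouse 1 was the EAE mouse closest to the healthy mice more often than any other: it was the lowest EAE mouse in 66 of the 164 rises and the highest in 138 of the 277 falls. EAE mouse 2 was the highest EAE mouse in 51 rises and the lowest in 105 falls.

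**Figure D1:**
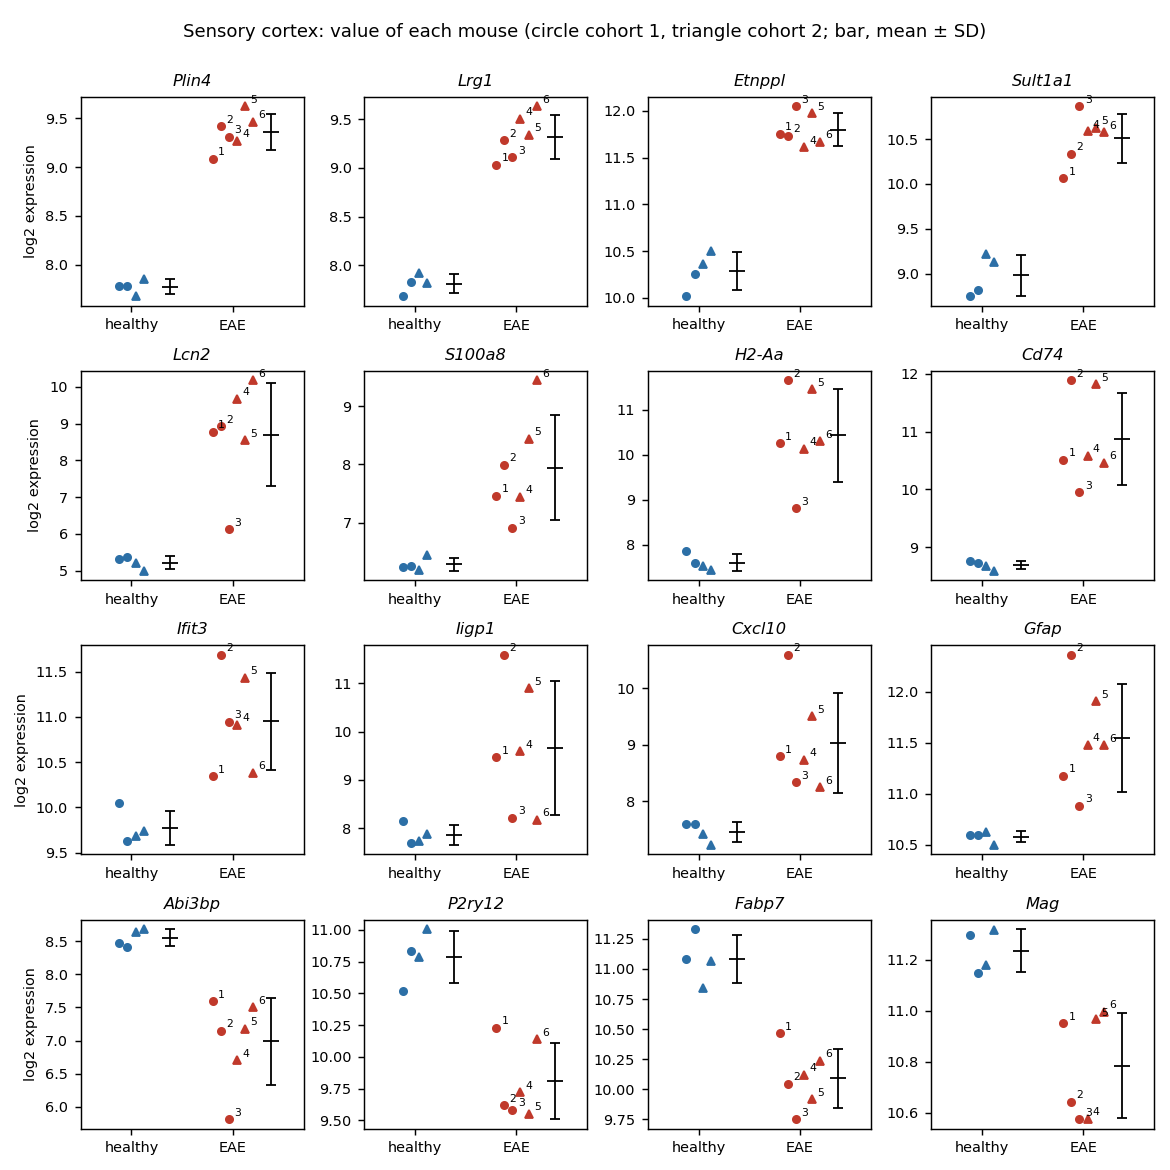
Log2 expression of 16 genes in sensory cortex, 1 panel per gene, with healthy mice in blue, EAE mice in red and numbered, cohort 1 as circles and cohort 2 as triangles, and the mean ± SD of each group beside them. Plin4, Lrg1, Etnppl and Sult1a1 form 2 groups that do not overlap. H2-Aa, Cd74, Ifit3, Iigp1 and Cxcl10 are highest in EAE mice 2 and 5.

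Plin4, Lrg1, Etnppl and Sult1a1 had large rises that varied less between EAE mice than those of Lcn2, H2-Aa and Cd74. Their SDs still lay above 0.15, the median over the 164 genes that rose. Plin4, which coats lipid droplets, lay at 9.08, 9.42, 9.31, 9.27, 9.63 and 9.46 in EAE mice 1 to 6 and at 7.78, 7.78, 7.67 and 7.85 in the healthy mice. It rose by 1.59 ± 0.09 (SE, limma adjusted p 4.42e-05), by 1.49 within cohort 1 and by 1.69 within cohort 2. Its lowest EAE value was more than 1 log2 unit above its highest healthy value. Lrg1, a secreted glycoprotein of activated endothelium and of the acute phase, lay at 9.03, 9.29, 9.11, 9.50, 9.34 and 9.64 in the EAE mice and at 7.68, 7.82, 7.92 and 7.82 in the healthy mice, and rose by 1.51 ± 0.08 (adjusted p 4.42e-05). Etnppl, an astrocyte enzyme that breaks down phosphoethanolamine, lay at 11.76, 11.73, 12.05, 11.61, 11.97 and 11.67 against 10.02, 10.26, 10.36 and 10.51, and rose by 1.51 ± 0.11 (adjusted p 0.000412). Its other probe set stood at 0.45 and did not reach an unadjusted p under 0.05. Sult1a1, a sulfotransferase for phenolic compounds, lay between 10.06 and 10.87 in the EAE mice, with a median of 10.58, and at 8.75, 8.82, 9.22 and 9.13 in the healthy mice, and rose by 1.53 ± 0.13 (adjusted p 0.0011). None of these 4 genes overlapped between the groups.

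Of the 441 called genes, 17 were called whichever of the 10 mice was left out, and they were singled out after their values were seen. The 13 that rose were, beside those 4, Matn2 (1.03 ± 0.09), an extracellular matrix adaptor, Xdh (0.99 ± 0.12), xanthine dehydrogenase, Vwf (0.88 ± 0.10), von Willebrand factor of endothelial granules, Rps6ka5 (0.60 ± 0.06), a stress activated kinase, Sparc (0.60 ± 0.07), a collagen binding matrix protein, Pla1a (0.55 ± 0.06), a phospholipase, Cyp4f15 (0.55 ± 0.06), a fatty acid hydroxylase, Mfsd2a (0.52 ± 0.06), the lysolipid transporter of the blood-brain barrier, and Pdyn (0.46 ± 0.06), the precursor of dynorphin peptides. Those that fell were the transcript AW047730 (fell by 0.52 ± 0.07), the polo-like kinase Plk5 (fell by 0.62 ± 0.07), Emcn (fell by 0.67 ± 0.07), a sialomucin of venous and capillary endothelium, and Apln (fell by 0.74 ± 0.10), the ligand of the apelin receptor. All 17 were also called in motor cortex of the same mice, where 410 of 18193 genes (2.25%) were called. The 2 regions share their mice, and the within-mouse difference of the EAE effect was not called for any of the 17.

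**Figure D2:**
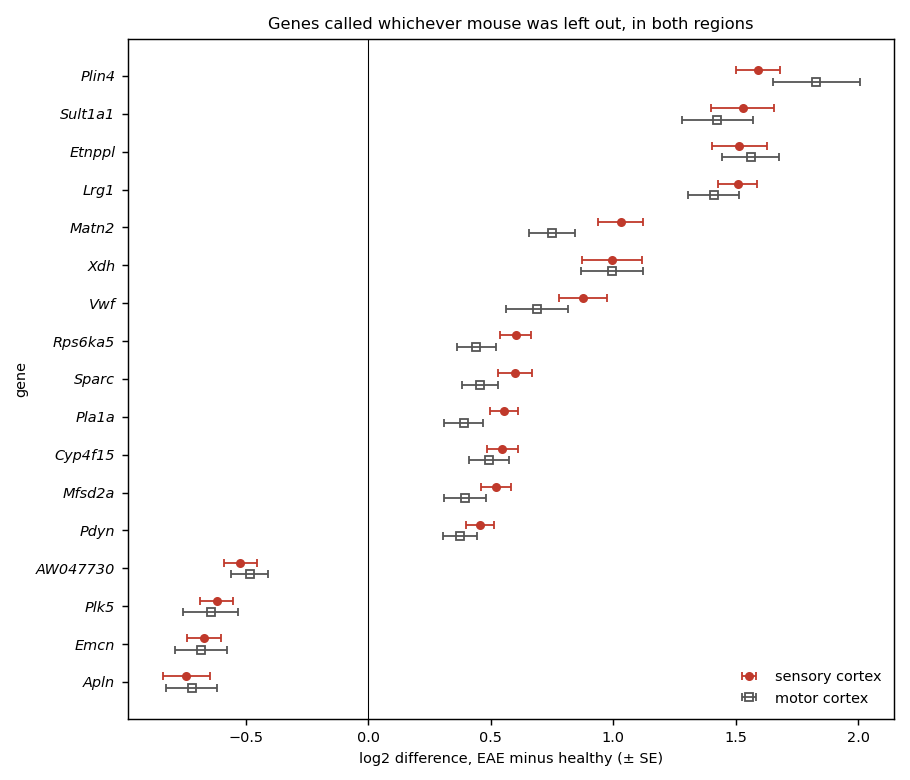
Log2 difference, EAE minus healthy, with its SE, of the 17 genes that were called in sensory cortex whichever mouse was left out, in sensory cortex (filled circles) and in motor cortex (open squares). The 13 rises run from 0.46 to 1.59 and the 4 falls from -0.74 to -0.52 in sensory cortex, with motor cortex on the same side of 0 for each gene.

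Glucocorticoid responsive genes stood higher as a list, with Plin4 and Sult1a1 at its head. This list and those below were chosen with earlier results of these data known. Their shares of called genes, set beside those of all genes, are therefore descriptions and not independent tests. Of 18 measured members 4 rose (22.2%, against 0.901% of all genes) and 0 fell (against 1.52%), and 17 lay above 0, with a median of 0.31 against 0.00 over all genes. Fkbp5, a cochaperone of steroid receptors, lay between 10.76 and 11.61 in the EAE mice, with a median of 11.33, and at 9.78, 10.10, 10.46 and 10.30 in the healthy mice. It rose by 1.13 ± 0.15 (adjusted p 0.0109), and the groups did not overlap. Hif3a, a hypoxia inducible factor subunit, rose by 0.46 ± 0.07 (adjusted p 0.0163). Sgk1, a kinase, stood at 0.65 ± 0.19 (adjusted p 0.115), Tsc22d3, the glucocorticoid induced leucine zipper, at 0.31 ± 0.10 (adjusted p 0.135), and the clock gene Per1 at -0.02 ± 0.14. The mean of the list relative to the healthy mice was 0.28, 0.38, 0.47, 0.37, 0.63 and 0.62 in EAE mice 1 to 6, and -0.10, -0.07, 0.16 and 0.01 in the healthy mice. The rise of Fkbp5 was not called on its probe set of largest interquartile range (0.51, adjusted p 0.409) or without healthy mouse 4 (adjusted p 0.0626), and that of Hif3a not without healthy mouse 2, 3 or 4 (up to 0.0789).

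Lipid droplet, metallothionein and fuel genes had few calls. Of 10 genes of lipid droplet coats and lipases 2 rose (20%, against 0.901% of all genes), Plin4 and Pnpla2 (0.36 ± 0.06, adjusted p 0.0266), the main triglyceride lipase, which was not called without healthy mouse 4 (0.102) or with the mean of its probe sets (0.22, adjusted p 0.157), and the median was 0.07. Among 6 metallothionein and zinc genes 0 were called, with Mt1 at 0.23 ± 0.06 (adjusted p 0.0896), Mt2 at 0.24 ± 0.07 and the neuronal Mt3 at -0.03 ± 0.07. Among 15 genes of fasting and fatty acid use 0 were called, with Ppargc1a at 0.19 ± 0.06, Cpt1a at -0.20 ± 0.07, Ppard at -0.23 ± 0.08 and Angptl4 at 0.51 ± 0.22.

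MHC class II genes had the largest rises among the antigen presentation genes, with sizes that differed between mice. Of 7 measured members 4 rose (57.1%, against 0.901% of all genes) and all 7 lay above 0, with a median of 1.51. H2-Aa, a class II alpha chain, lay at 10.26, 11.65, 8.81, 10.13, 11.46 and 10.30 in EAE mice 1 to 6 and at 7.86, 7.59, 7.52 and 7.45 in the healthy mice, a difference of 2.83 ± 0.47 (7.09-fold, adjusted p 0.0211). EAE mice 2 and 5 were highest and EAE mouse 3 lowest, and the groups did not overlap. Cd74, the invariant chain that escorts class II molecules, was also highest in EAE mice 2 and 5 and lowest in EAE mouse 3, at 10.51, 11.88, 9.95, 10.58, 11.82 and 10.46 against 8.77, 8.73, 8.69 and 8.60, and rose by 2.17 ± 0.36 (2.03 in cohort 1 and 2.31 in cohort 2). H2-Eb1, a class II beta chain, rose by 1.51 ± 0.29 (adjusted p 0.0301). Ciita, the transactivator itself, rose by 0.28 ± 0.05 from a low level, with EAE values between 7.34 and 7.53 and healthy values of 7.15, 7.15, 7.12 and 7.15, while its 2 other probe sets did not reach an unadjusted p under 0.05. H2-Ab1 stood at 1.63 ± 0.38 (adjusted p 0.0557), H2-Oa at 0.25 ± 0.10 and H2-DMa at 0.21 ± 0.17. The 4 calls were lost without any one of the healthy mice, with adjusted p of up to 0.125 for H2-Eb1 without healthy mouse 3.

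Promoter sequences of 2 class II genes are shown because their conserved Y box, which the factor NF-Y binds as part of the platform that CIITA uses, lies close to the start site. They are the 180 bases before the start site, from RefSeq on GRCm38.p6, written 5′ to 3′ on the strand of the gene, with the letters CTGATTGG in capitals. That of H2-Aa is chr17:34287824-34288003 on the minus strand, with the box 51 bases before the start site. That of H2-Eb1 is chr17:34305687-34305866 on the plus strand, with the box 62 bases before it.
H2-Aa: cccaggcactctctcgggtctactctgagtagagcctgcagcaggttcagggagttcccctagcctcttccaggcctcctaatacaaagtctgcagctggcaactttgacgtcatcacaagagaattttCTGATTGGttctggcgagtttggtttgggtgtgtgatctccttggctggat
H2-Eb1: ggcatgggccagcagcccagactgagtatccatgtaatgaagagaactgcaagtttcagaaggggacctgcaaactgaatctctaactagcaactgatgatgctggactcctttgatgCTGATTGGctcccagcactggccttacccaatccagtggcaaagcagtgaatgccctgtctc
Among class II genes 4 had a promoter listed, and 3 of these held CTGATTGG or its complement on the other strand, and of the 7 class I genes 3 did, against 5.87% of the 14452 tested genes with a promoter and 4.1% of all 32851 promoters of 300 bases. A match is a description of letters and not of binding.

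MHC class I and peptide loading genes were higher by less. Of 9 measured members 3 rose (33.3%, against 0.901% of all genes) and all 9 lay above 0, with a median of 0.40. H2-K1, a classical class I heavy chain, lay at 12.33, 13.02, 12.24, 12.61, 13.25 and 12.66 in the EAE mice and at 11.73, 11.75, 11.51 and 11.55 in the healthy mice, and rose by 1.05 ± 0.18 (adjusted p 0.0237). EAE mice 2 and 5 were again the highest. H2-D1 rose by 0.79 ± 0.13 and B2m, the light chain of every class I molecule, by 0.38 ± 0.08 (adjusted p 0.0488). The probe sets of class I genes can share sequence with paralogs, so that the gene named is uncertain. Nlrc5, the class I transactivator, stood at 1.39 ± 0.33 (adjusted p 0.0575), the peptide transporter subunits Tap1 at 0.88 ± 0.28 and Tap2 at 0.40 ± 0.13, and H2-M3 at 0.25 ± 0.06. The 3 calls were lost without any one of the healthy mice, and B2m reached 0.183 without healthy mouse 3. Of the 4 immunoproteasome genes, which replace or assist the catalytic subunits under interferon gamma, 0 were called, with Psmb8 at 1.13 ± 0.30 (adjusted p 0.0802), Psmb9 at 1.15 ± 0.33 (adjusted p 0.0953) and a list median of 0.69. The 24 constitutive proteasome genes had a median of 0.01, with a range from -0.11 to 0.17, and 0 were called.

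Interferon-induced effector genes were higher in every member measured, and few passed the test. Of 28 members 5 rose (17.9%, against 0.901% of all genes) and 28 lay above 0, with a median of 0.57. The groups did not overlap for 14 of the 28 (50%), against 6.51% of all genes. Ifi27l2a, a small membrane protein of the interferon response, rose by 1.45 ± 0.24 (adjusted p 0.0211), with EAE values between 8.54 and 9.65, a median of 8.87 and healthy values of 8.07, 7.60, 7.26 and 7.34. Ifit3 lay at 10.34, 11.69, 10.95, 10.91, 11.43 and 10.39 in the EAE mice and at 10.04, 9.62, 9.69 and 9.74 in the healthy mice, and rose by 1.18 ± 0.25 (adjusted p 0.044). Ifit1, like Ifit3 a protein that binds foreign RNA, rose by 1.05 ± 0.23 (adjusted p 0.0463). For both Ifit genes EAE mice 2 and 5 were the highest, and healthy mouse 1 was the highest of its group. Ifitm2 and Ifitm1, which hinder the fusion of viruses at membranes, rose by 0.61 ± 0.09 and by 0.71 ± 0.14. Each of the 5 calls was lost without healthy mouse 2, 3 or 4, with adjusted p of up to 0.164 for Ifit1. Usp18, which dampens the type I receptor, stood at 1.12 ± 0.26 (adjusted p 0.0571) and Ifitm3 at 1.11 ± 0.26 (adjusted p 0.0549).

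The interferon-inducible GTPases had large differences and no call. All 8 measured members lay above 0, with a median of 1.29. All 8 had an unadjusted p under 0.05 in limma, against 3372 of 18193 genes, but the adjusted p ran from 0.129 to 0.196. Iigp1, which attacks the membranes of vacuoles that hold microbes, lay at 9.47, 11.59, 8.22, 9.59, 10.89 and 8.17 in EAE mice 1 to 6 and at 8.15, 7.69, 7.73 and 7.89 in the healthy mice, a difference of 1.79 ± 0.63 (95% interval 0.40 to 3.18). EAE mice 2 and 5 were the highest, and EAE mice 3 and 6 lay barely above the highest healthy mouse. Gbp6 stood at 1.58 ± 0.49, Gbp2 at 1.54 ± 0.54, Irgm2 at 1.35 ± 0.43, Igtp at 1.24 ± 0.41 and Irgm1 at 1.13 ± 0.36. The SD between EAE mice ran from 0.76 to 1.38 over these 8 genes and between healthy mice from 0.07 to 0.22. The mean of the list relative to the healthy mice was 0.98, 2.82, 0.33, 1.17, 2.15 and 0.47 in EAE mice 1 to 6 and 0.18, -0.01, -0.15 and -0.03 in the healthy mice, and the class II list was also highest in EAE mice 2 and 5 and lowest in EAE mouse 3, at 1.05, 1.93, 0.57, 1.07, 1.89 and 1.10.

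Promoters of 3 of these genes are shown because they hold the interferon-stimulated response element (ISRE), to which IRF and STAT complexes bind, searched as GAAA, any 2 bases and GAAA, or TTTC, any 2 bases and TTTC on the other strand, and printed in capitals. They are the 180 bases before the start site on the plus strand of GRCm38.p6, from RefSeq. That of Ifit1 is chr19:34640709-34640888, with matches that begin 104 and 85 bases before the start site, that of Ifit3 is chr19:34583349-34583528, with matches at 156 and 122 bases, and that of Igtp is chr11:58199376-58199555, with 1 match at 34 bases.
Ifit1: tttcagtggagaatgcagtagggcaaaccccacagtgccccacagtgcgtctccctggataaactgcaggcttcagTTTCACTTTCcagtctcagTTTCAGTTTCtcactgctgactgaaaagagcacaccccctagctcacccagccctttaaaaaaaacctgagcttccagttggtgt
Ifit3: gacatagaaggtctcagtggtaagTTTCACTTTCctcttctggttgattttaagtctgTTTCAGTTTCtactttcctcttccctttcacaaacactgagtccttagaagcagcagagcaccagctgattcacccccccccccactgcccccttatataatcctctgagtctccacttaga
Igtp: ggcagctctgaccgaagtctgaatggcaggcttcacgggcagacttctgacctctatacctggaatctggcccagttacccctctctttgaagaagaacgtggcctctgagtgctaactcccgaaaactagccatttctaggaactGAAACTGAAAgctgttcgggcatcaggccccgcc
Ifit1 and Ifit3 carried the same pair of matches, TTTCACTTTC upstream of TTTCAGTTTC. The ISRE letters lay in 11 of the 19 effector promoters in the table and in 6 of the 6 GTPase promoters, against 3.63% of the promoters of tested genes and 3.44% of all promoters. They lay in 12 of 129 promoters of genes that rose (9.3%) and in 6 of 208 of genes that fell (2.88%). The core of the glucocorticoid response element, ACANNNTGT, lay in 1 of 17 promoters of the glucocorticoid list, in 15 of 129 of genes that rose (11.6%) and in 13 of 208 of genes that fell (6.25%), against 6.1% of those of tested genes.

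**Figure D3:**
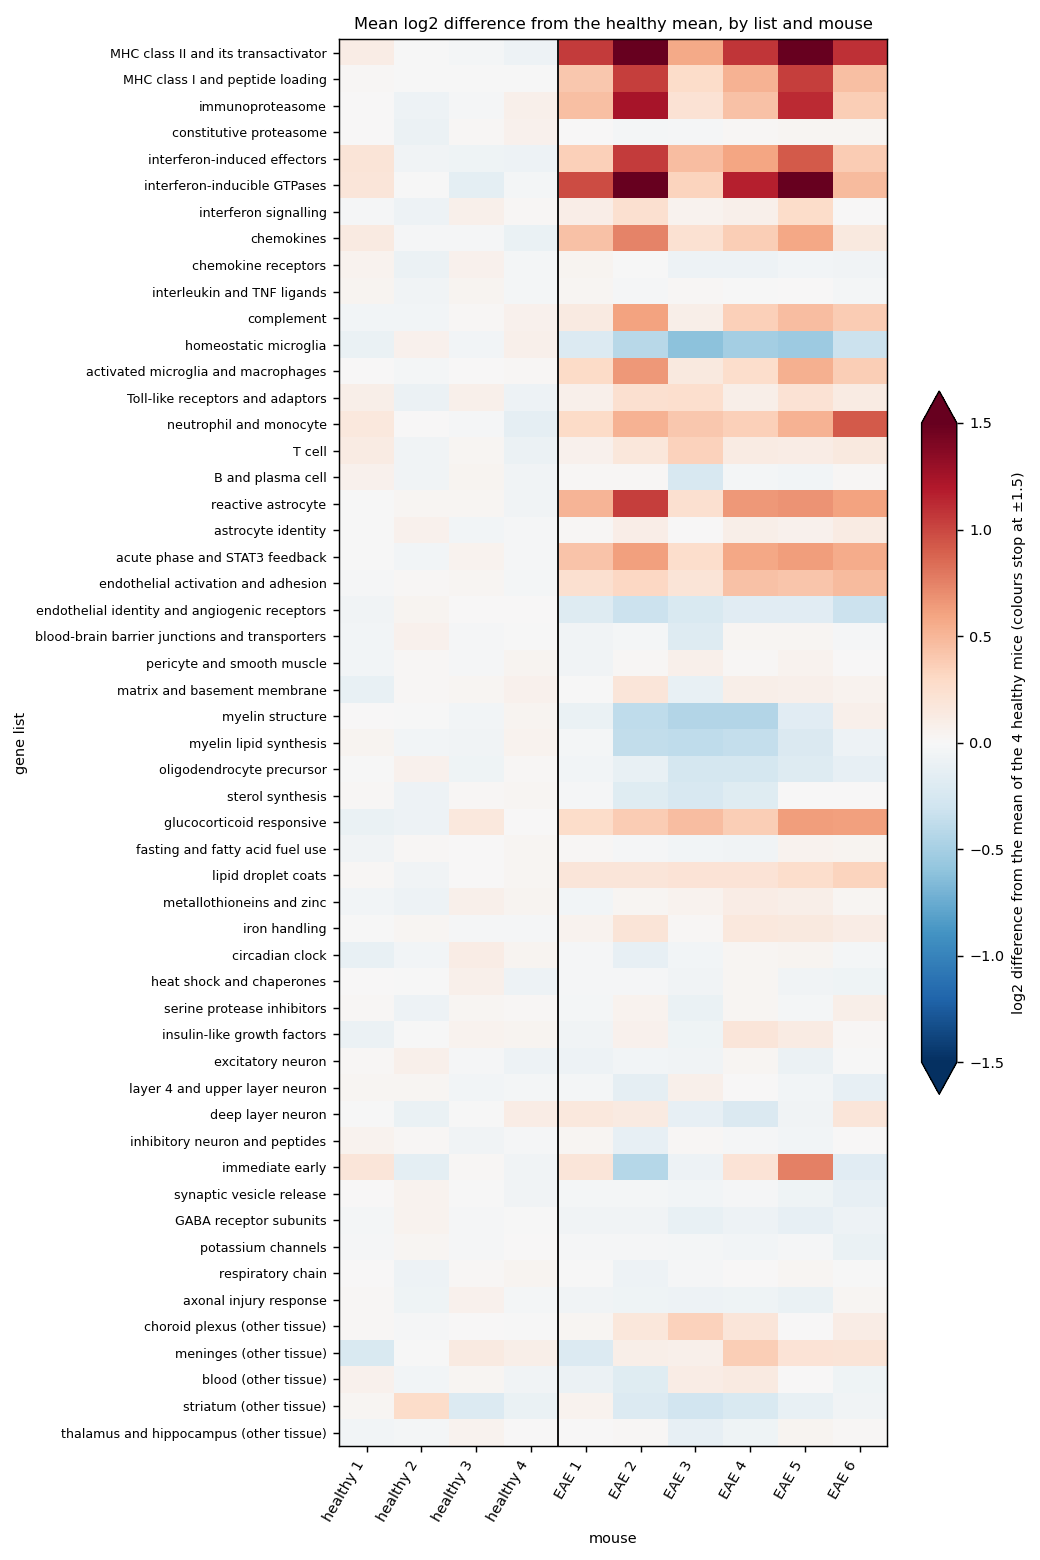
Mean log2 difference from the mean of the 4 healthy mice, for each gene list (rows) and mouse (columns, healthy mice to the left of the line), with red for higher and blue for lower values and colours that stop at 1.5 log2 units. The class II, GTPase and effector lists are darkest in EAE mice 2 and 5, the neutrophil and monocyte list in EAE mouse 6, and the myelin structure list is lowest in EAE mice 2 to 4.

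Genes of interferon signalling changed little beside their targets, with 0 of 16 higher, 1 lower (6.25%, against 1.52% of all genes) and a median of 0.07. The one that fell was Ifngr2, a chain of the interferon gamma receptor, which fell by 0.26 ± 0.06 (adjusted p 0.0422) and was not called without any one of 8 of the 10 mice. Among 16 chemokine genes 2 rose (12.5%, against 0.901% of all genes), both attractants of monocytes. Ccl12 lay at 9.51, 9.95, 8.15, 9.31, 10.16 and 8.50 in the EAE mice and at 7.21, 7.01, 7.22 and 7.16 in the healthy mice, and rose by 2.11 ± 0.36 (adjusted p 0.0229). Its paralog Ccl2 rose by 0.62 ± 0.11 (adjusted p 0.0269), and neither overlapped between the groups. The T cell attractants Cxcl10 and Ccl5 stood at 1.58 ± 0.39 (adjusted p 0.0643) and 1.05 ± 0.26 (adjusted p 0.0683), and Cxcl12, which is made in healthy brain, at -0.39 ± 0.09 (adjusted p 0.0571). Of 10 chemokine receptor genes 0 were called. Of 16 interleukin and tumour necrosis factor ligands 1 fell (6.25%, against 1.52% of all genes). It was Il34, the neuronal ligand of the microglial receptor Csf1r, which fell by 0.36 ± 0.07 (adjusted p 0.0325). The calls of Ccl12 and Ccl2 were lost without any one of the healthy mice, at up to 0.0996 and 0.108, and that of Il34 without healthy mouse 3 at 0.141.

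Microglial genes moved in both directions. Of 11 homeostatic microglia genes 3 fell (27.3%, against 1.52% of all genes) and 10 lay below 0, with a median of -0.32. P2ry12, the purine receptor by which resting microglia sense injury, lay at 10.23, 9.62, 9.58, 9.72, 9.55 and 10.14 in the EAE mice and at 10.52, 10.83, 10.78 and 11.01 in the healthy mice, and fell by 0.98 ± 0.15 (adjusted p 0.0187). EAE mice 1 and 6 had the highest values of their group, and the groups did not overlap. Gpr34, a lysophosphatidylserine receptor, lay between 7.05 and 8.22 in the EAE mice, with a median of 7.28, and at 8.51, 8.77, 8.54 and 8.56 in the healthy mice, and fell by 1.08 ± 0.23 (adjusted p 0.045). P2ry13 fell by 0.61 ± 0.13 (adjusted p 0.0388). Fcrls stood at -1.03 ± 0.25 (adjusted p 0.0624), Siglech at -0.32 ± 0.10 and Cx3cr1, the fractalkine receptor, at -0.71 ± 0.23 (adjusted p 0.138), with EAE values from 8.71 to 10.02 that overlapped the healthy ones. The 3 calls were lost without healthy mouse 2, 3 or 4, at up to 0.144 for Gpr34.

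Of 20 genes of activated microglia and macrophages 6 rose (30%, against 0.901% of all genes) and 0 fell, with a median of 0.37. Cd52, a surface glycoprotein of leukocytes, rose by 1.34 ± 0.28 (adjusted p 0.0396), Fcgr1, the high affinity Fc receptor, by 0.78 ± 0.17, Ctss, the protease that trims the invariant chain, by 0.64 ± 0.10 (adjusted p 0.0153), Ms4a7 by 0.40 ± 0.09, the integrin gene Itgax by 0.38 ± 0.08 and Gpnmb by 0.29 ± 0.06. Ctss lay at 13.40, 13.81, 13.31, 13.38, 13.65 and 13.60 in the EAE mice and at 12.93, 12.88, 12.83 and 12.89 in the healthy mice. It is among the brighter genes of the arrays, and the groups did not overlap. Fcgr4, an activating Fc receptor, rose by 1.45 ± 0.28 and Lyz1, lysozyme, by 1.19 ± 0.25. Of 11 complement genes 1 rose (9.09%, against 0.901% of all genes), C1qb, by 0.60 ± 0.14 (adjusted p 0.0494). C1qa and C1qc, the other chains of C1q, stood at 0.56 ± 0.14 and 0.47 ± 0.13. Serping1, the C1 inhibitor, stood at 0.75 ± 0.18 (adjusted p 0.0636). Of 13 Toll-like receptor and adaptor genes 1 rose (7.69%, against 0.901% of all genes), Tlr2, by 0.43 ± 0.08 (adjusted p 0.0282). With the mean of all probe sets of a gene, Ms4a7 (0.21), Gpnmb (0.16) and Lyz1 (0.78) were not called, at adjusted p of 0.122, 0.175 and 0.0574. Each of these calls was lost without healthy mouse 2, 3 or 4, and the adjusted p of Itgax lay above 0.05 whichever mouse was left out (0.052 to 0.184).

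Leukocyte lists had mean levels near or below the array medians, and 1 member was called. In the neutrophil and monocyte list 1 of 12 members rose (8.33%, against 0.901% of all genes), S100a8, a subunit of calprotectin. All 12 lay above 0, with a median of 0.26. S100a8 lay at 7.46, 7.99, 6.91, 7.45, 8.44 and 9.44 in the EAE mice and at 6.25, 6.26, 6.20 and 6.44 in the healthy mice, a difference of 1.66 ± 0.36 (adjusted p 0.0442). It was highest in EAE mouse 6, whereas the class II genes were highest in EAE mice 2 and 5. The call was lost without EAE mouse 2 or 5 or any one of the healthy mice (up to 0.167). S100a9 stood at 1.27 ± 0.42 and Plac8 at 1.01 ± 0.31. The mean level of the list lay between 7.41 and 8.04 in the EAE mice and between 6.99 and 7.28 in the healthy mice. Of 13 T cell genes 0 were called and 13 lay above 0, from 0.01 to 0.48, and the list's mean level was 7.48 to 7.76 against 7.33 to 7.54. Relative to the healthy mice the T cell mean was 0.06, 0.17, 0.35, 0.13, 0.11 and 0.14 in EAE mice 1 to 6. The healthy mice lay at 0.12, -0.06, 0.03 and -0.09. The highest value was that of EAE mouse 3, whose array stood apart from the other EAE arrays. Cd3g stood at 0.48 ± 0.19, Cd3d at 0.18 ± 0.07, Cd2 at 0.21 ± 0.08 and the granzyme gene Gzmb at 0.22 ± 0.07. Of 8 B and plasma cell genes 0 were called, with Ighm at -0.79 ± 0.21 (adjusted p 0.0802), Blnk at 0.30 ± 0.28 and Mzb1 at 0.08 ± 0.07, and the mean level was 7.98 to 8.24 against 8.16 to 8.28. The part of entering leukocytes in the higher antigen presentation and interferon genes was not tested.

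**Figure D4:**
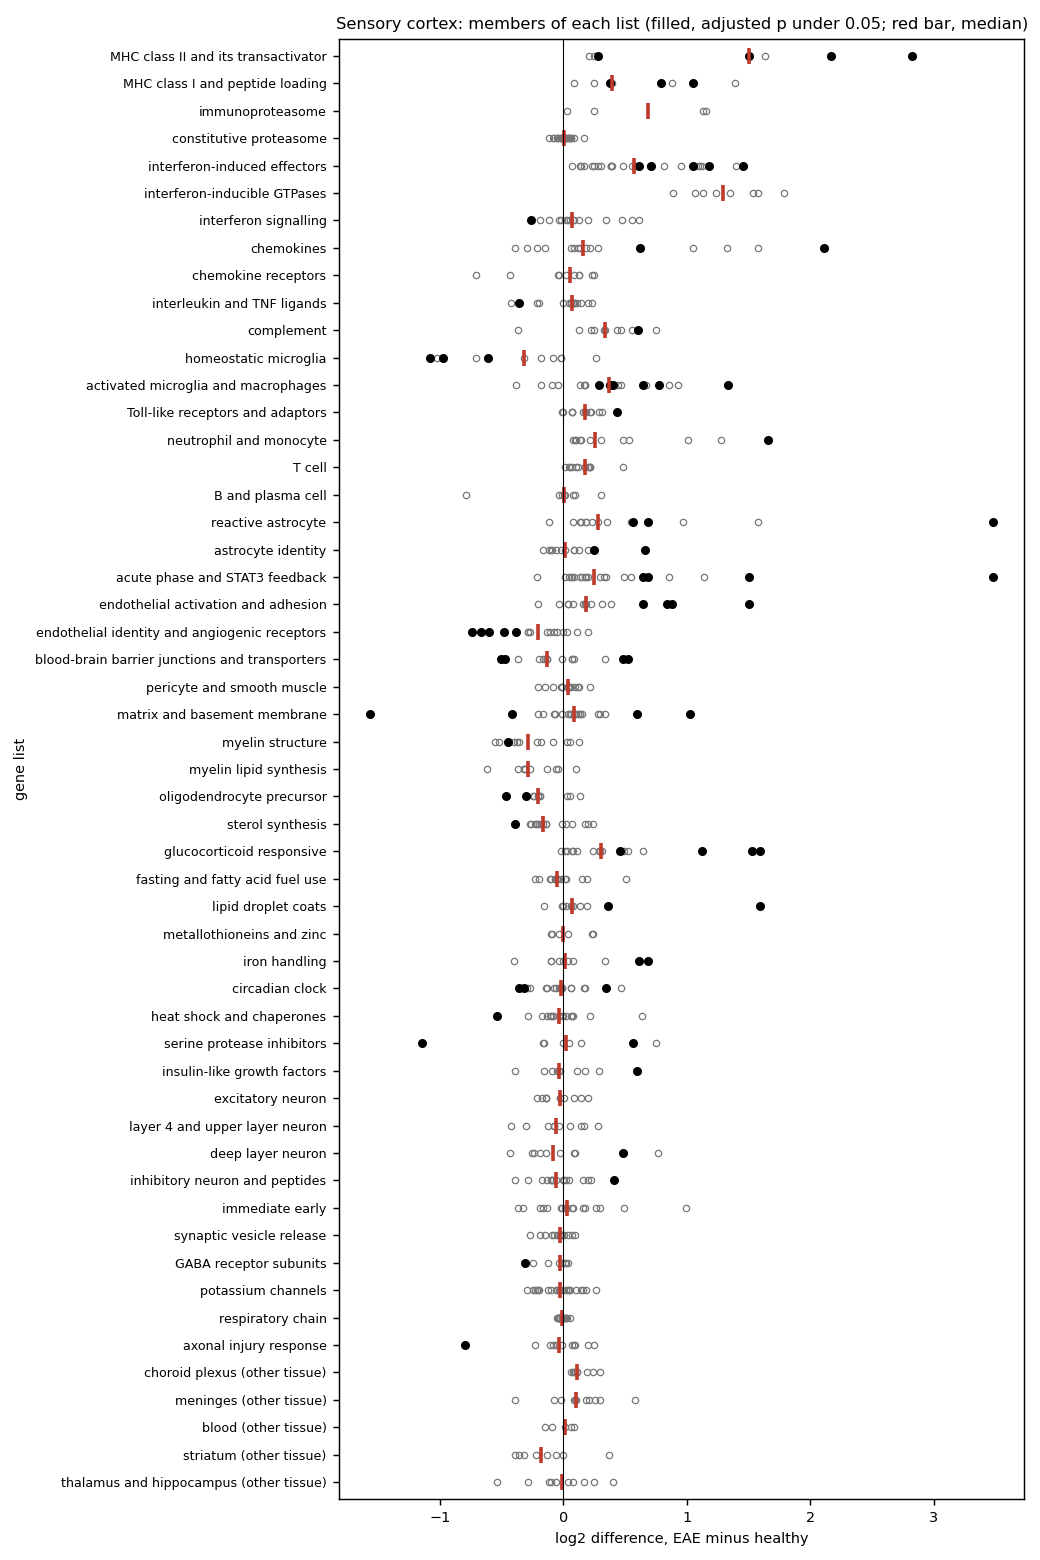
Log2 difference, EAE minus healthy, of the measured members of 53 gene lists in sensory cortex, with filled points for adjusted p under 0.05, open points for the rest and a red bar at the median. The class II median is 1.51, the GTPase median 1.29 with no filled point, and the respiratory chain lies within -0.05 to 0.05.

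Genes listed for the reactive state of astrocytes stood higher, with Lcn2 far ahead. The cells that made these transcripts were not tested in this bulk tissue. Lcn2, lipocalin 2, which binds iron-loaded siderophores, lay at 8.78, 8.93, 6.12, 9.68, 8.54 and 10.18 in EAE mice 1 to 6 and at 5.31, 5.38, 5.20 and 5.00 in the healthy mice. It rose by 3.48 ± 0.58 (adjusted p 0.0213), by 2.60 in cohort 1 and 4.37 in cohort 2, and EAE mouse 3 was nearest to the healthy mice. The call was lost without any one of the healthy mice (0.0527 to 0.0996). Of 15 genes of reactive astrocytes 3 rose (20%, against 0.901% of all genes) and 14 lay above 0, with a median of 0.28. Cp, the ferroxidase ceruloplasmin, rose by 0.68 ± 0.13 and Serpina3n, a serine protease inhibitor, by 0.57 ± 0.13 (adjusted p 0.0482). Gfap, the intermediate filament of astrocytes, stood at 0.97 ± 0.24 (adjusted p 0.0645), with EAE values of 11.18, 12.36, 10.88, 11.48, 11.90 and 11.47 that all lay above the healthy 10.59, 10.59, 10.62 and 10.50. Of 13 astrocyte identity genes 2 rose (15.4%, against 0.901% of all genes). The median of this list was 0.01, with 7 members above 0 and 6 below. Gjb6, the connexin of astrocyte gap junctions, lay between 12.01 and 12.53 in the EAE mice against 11.69, 11.58, 11.62 and 11.59, and rose by 0.66 ± 0.09 (adjusted p 0.0102). Fgfr3, a fibroblast growth factor receptor, rose by 0.25 ± 0.05 (adjusted p 0.0342). Fabp7, the fatty acid binding protein of immature astroglia, fell by 0.99 ± 0.13 (adjusted p 0.0109), with EAE values between 9.75 and 10.46 and healthy values of 11.09, 11.33, 10.84 and 11.07. The calls of Cp, Serpina3n and Fgfr3 were lost without any one of the healthy mice, Gjb6 without healthy mouse 3 or 4 (up to 0.0626) and Fabp7 without healthy mouse 4 (0.0662).

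In the list of the acute phase and of STAT3 feedback 4 of 22 members rose (Lrg1, Lcn2, Icam1 and Cp; 18.2%, against 0.901% of all genes) and 21 lay above 0, with a median of 0.25. Cebpd, an acute phase transcription factor, stood at 0.85 ± 0.20 (adjusted p 0.0558) and the oncostatin M receptor gene Osmr at 0.54 ± 0.13 (adjusted p 0.0601). Of 10 genes of iron handling 2 rose (20%, against 0.901% of all genes), Cp and Heph, a ferroxidase related to Cp. Heph rose by 0.62 ± 0.09 (adjusted p 0.0134). The iron exporter gene Slc40a1 stood at -0.40 ± 0.12 and the transferrin receptor gene Tfrc at 0.34 ± 0.08 (adjusted p 0.0656). Heph was not called without healthy mouse 3 or 4 (up to 0.0671). Among 8 serpins 1 rose (12.5%, against 0.901% of all genes), Serpina3n, and 1 fell (12.5%, against 1.52%). Serpinb1a, an inhibitor of neutrophil proteases, fell by 1.15 ± 0.23 (adjusted p 0.0335), with values of 7.68, 6.57, 6.41, 7.01, 7.11 and 7.39 in the EAE mice and 8.45, 7.95, 8.06 and 8.24 in the healthy mice, whereas its other probe set stood at -0.03. Serpinb1a was not called without EAE mouse 2, 4 or 5 or any one of the healthy mice (up to 0.118).

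Among endothelial genes, 4 of activation and adhesion rose, and 5 of identity, among them receptors for growth factors of vessels, fell. Of 15 genes of endothelial activation and adhesion 4 rose (26.7%, against 0.901% of all genes). Beside Lrg1, Vwf lay between 9.00 and 9.68 in the EAE mice against 8.24, 8.63, 8.68 and 8.63, and rose by 0.88 ± 0.10 (adjusted p 0.00645). Icam1, to which leukocytes adhere, rose by 0.65 ± 0.12 (adjusted p 0.0262) and Ch25h, cholesterol 25-hydroxylase, by 0.84 ± 0.19 (adjusted p 0.0482). Of 16 genes of endothelial identity and angiogenic receptors 5 fell (31.2%, against 1.52% of all genes) and 0 rose, with a median of -0.20. Emcn lay at 8.49, 8.21, 8.19, 8.36, 8.55 and 8.39 in the EAE mice and at 9.02, 9.05, 9.05 and 9.02 in the healthy mice, with no overlap. Apln lay between 9.64 and 10.11 against 10.63, 10.86, 10.59 and 10.56. The receptor kinase genes Tie1, Kdr and Tek fell by 0.61 ± 0.10, fell by 0.48 ± 0.10 and fell by 0.39 ± 0.07, and Flt1 stood at -0.29 ± 0.07 (adjusted p 0.0718). Of 15 genes of barrier junctions and transporters 2 rose (13.3%, against 0.901% of all genes) and 2 fell (13.3%, against 1.52%). Those that rose were Mfsd2a and the glucose transporter gene Slc2a1 (0.48 ± 0.11, adjusted p 0.049). Those that fell were the thyroid hormone transporter gene Slco1c1 (fell by 0.51 ± 0.07) and the glutamine transporter gene Slc38a3 (fell by 0.48 ± 0.07). Of 14 pericyte and smooth muscle genes 0 were called, with Rgs5 at -0.20 ± 0.05 (adjusted p 0.0565) and a median of 0.04. Beside Vwf, Lrg1, Emcn, Apln and Mfsd2a, each of the vascular calls was lost without healthy mouse 4, with adjusted p from 0.0542 for Slco1c1 to 0.171 for Slc2a1.

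In the list of matrix and basement membrane genes 2 of 23 rose (Matn2 and Sparc; 8.7%, against 0.901% of all genes) and 2 fell (8.7%, against 1.52%). Abi3bp, an extracellular matrix protein, had the largest fall of all genes called. It lay at 7.59, 7.15, 5.81, 6.70, 7.17 and 7.50 in EAE mice 1 to 6 and at 8.47, 8.41, 8.64 and 8.68 in the healthy mice, fell by 1.56 ± 0.29 (adjusted p 0.0286), and was lowest in EAE mouse 3. Its other probe set stood at -1.35 in the same direction. Tnc, tenascin C, fell by 0.41 ± 0.09 (adjusted p 0.0488), with groups that overlapped. Fn1, fibronectin, stood at 0.28 ± 0.08 and the collagen gene Col1a2 at 0.30 ± 0.10. Both falls were lost without any one of the healthy mice, at up to 0.116 for Abi3bp and 0.183 for Tnc, and that of Tnc with the mean of its probe sets (-0.24, adjusted p 0.0511). Markers of the meninges, which can adhere to the cortical surface, had 0 of 11 members called, 8 above 0 and a median of 0.11, with Mgp at 0.58 ± 0.14 (adjusted p 0.0638). Their mean level was 9.54 to 10.11 in the EAE mice and 9.52 to 9.88 in the healthy mice. The part of the meninges in the matrix genes was not tested.

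Oligodendrocyte genes stood lower in most EAE mice, with few calls. Of 12 myelin structure genes 1 fell (8.33%, against 1.52% of all genes) and 9 lay below 0, with a median of -0.29. Mag, the adhesion molecule of the inner myelin wrap, lay at 10.95, 10.64, 10.58, 10.58, 10.97 and 11.00 in the EAE mice and at 11.30, 11.15, 11.18 and 11.32 in the healthy mice, and fell by 0.45 ± 0.10 (adjusted p 0.0488). The list mean relative to the healthy mice was -0.10, -0.38, -0.44, -0.44, -0.17 and 0.07 in EAE mice 1 to 6, so that EAE mouse 6 lay above every healthy mouse. Gpr37, a receptor of mature oligodendrocytes, stood at -0.52 ± 0.12 (adjusted p 0.0515), Opalin at -0.55 ± 0.18, Tspan2 at -0.40 ± 0.14, Mog, the target of the immunisation, at -0.36 ± 0.13 and Cnp at -0.21 ± 0.08. Mbp, myelin basic protein, stood at 0.03 ± 0.05 at levels of 14.37 to 14.56, close to the highest value measured. Of 10 myelin lipid genes 0 were called and 9 lay below 0, with Ugt8a, which makes galactocerebroside, at -0.62 ± 0.14 (adjusted p 0.0536) and Gal3st1, which adds sulfate to it, at -0.32 ± 0.09. In the precursor list 2 of 11 members fell (18.2%, against 1.52% of all genes). Bcas1, a marker of newly formed oligodendrocytes, fell by 0.46 ± 0.08 (adjusted p 0.0237) and Cacng4 fell by 0.30 ± 0.06. The 2 other probe sets of Bcas1 stood at 0.05 and 0.07, and the mean of its probe sets was not called (-0.12, adjusted p 0.386). Of 17 sterol synthesis genes 1 fell (5.88%, against 1.52% of all genes), and the median was -0.17. It was Dhcr7, which makes cholesterol in the last step, and it fell by 0.39 ± 0.09 (adjusted p 0.0462). Lpar1, a lysophosphatidic acid receptor of oligodendrocytes, fell by 0.73 ± 0.15 (adjusted p 0.0366). Each of these calls was lost without any one of the healthy mice, with adjusted p of up to 0.171 for Mag.

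Neuronal lists had medians near that of all genes and 0 or 1 call each, while single members lay to both sides. The medians of 11 excitatory neuron genes, 10 layer 4 and upper layer genes, 16 synaptic vesicle genes, 22 potassium channel genes and 19 respiratory chain genes lay at -0.03, -0.06, -0.03, -0.03 and -0.01, and 0 of these genes were called. Over all genes 3372 of 18193 had an unadjusted p under 0.05. In the layer 4 and upper layer list 5 of 10 members did, and 3 (30%, against 6.51% of all genes) did not overlap between the groups. Cux2, a factor of upper layers, stood at 0.28 ± 0.07 (adjusted p 0.0821) and Rspo1, a secreted Wnt enhancer, at -0.42 ± 0.14 (adjusted p 0.139). Among the potassium channel genes 8 of 22 had an unadjusted p under 0.05 and 3 (13.6%) did not overlap, with Kcnn2 at 0.26 ± 0.07 (adjusted p 0.0789). Slc17a7 stood at -0.14 ± 0.08 (95% interval -0.31 to 0.03), Pvalb, the calcium buffer of fast-spiking interneurons, at 0.01 ± 0.07 (-0.16 to 0.17) and Rorb at -0.07 ± 0.08 (-0.25 to 0.10). Among 17 genes of inhibitory neurons and their peptides 1 rose (5.88%, against 0.901% of all genes). It was Vip, vasoactive intestinal peptide, which lay between 12.61 and 12.92 in the EAE mice against 12.42, 12.36, 12.23 and 12.29, and rose by 0.41 ± 0.06 (adjusted p 0.0185). Sst, somatostatin, stood at -0.28 ± 0.08 (adjusted p 0.0903), Gad1 at 0.20 ± 0.08 and Penk at -0.39 ± 0.15. Of 8 GABA receptor genes 1 fell (12.5%, against 1.52% of all genes). It was Gabrd, the subunit of extrasynaptic receptors, which lay between 11.39 and 11.56 in the EAE mice against 11.77, 11.87, 11.82 and 11.81, and fell by 0.31 ± 0.05 (adjusted p 0.0187). Vip and Gabrd were not called without healthy mouse 2, 3 or 4, at up to 0.0927 and 0.0881, nor was Gabrd with the mean of its probe sets (-0.14, adjusted p 0.246). Among 10 deep layer genes 1 rose (10%, against 0.901% of all genes), Ccn2, which marks the deepest layer and also vessels. The median of this list was -0.09, with 4 members above 0 and 6 below, the lowest at -0.43. Ccn2 rose by 0.48 ± 0.10 (adjusted p 0.0374, or 0.155 without healthy mouse 3), and Crym stood at 0.76 ± 0.19 (adjusted p 0.0628).

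Immediate early genes, which neurons switch on with activity, varied between EAE mice, and 0 of 17 were called. Fos lay at 12.40, 10.97, 12.18, 12.36, 13.36 and 11.77 in the EAE mice and at 12.37, 11.59, 11.74 and 11.81 in the healthy mice, so that EAE mice held both the highest and the lowest value. Fosb stood at 0.99 ± 0.49, with EAE mouse 5 at 11.62, and Arc at -0.36 ± 0.25. Among 18 heat shock genes 1 fell (5.56%, against 1.52% of all genes), Cryab, a small heat shock protein. Cryab fell by 0.54 ± 0.10 (adjusted p 0.0312, or 0.129 without healthy mouse 3, and -0.26 with 0.154 as the mean of its probe sets), and Hspa1b stood at 0.64 ± 0.15 (adjusted p 0.0514). Among 12 genes of the axonal injury response 1 fell (8.33%, against 1.52% of all genes). Gadd45a fell by 0.80 ± 0.17 (adjusted p 0.039, or 0.156 without healthy mouse 3), while Sox11 stood at 0.25 ± 0.10 and Gap43 at -0.23 ± 0.10. In the insulin-like growth factor list 1 of 10 members rose (10%, against 0.901% of all genes). Igf2 rose by 0.60 ± 0.12 (adjusted p 0.0378, or 0.142 without healthy mouse 3, and 0.37 with 0.0826 as the mean of its probe sets).

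Among 19 clock genes 1 rose (5.26%, against 0.901% of all genes) and 2 fell (10.5%, against 1.52%). Cry1, a repressor of the clock, rose by 0.35 ± 0.07 (adjusted p 0.0301), Arntl, its activator, fell by 0.32 ± 0.06 (adjusted p 0.0364) and Nr1d1, which represses Arntl, fell by 0.36 ± 0.07 (adjusted p 0.032). The call of Arntl rested on 1 of its 2 probe sets, since the other stood at -0.02 (adjusted p 0.928). Cry1 lay between 9.67 and 9.97 in the EAE mice against 9.42, 9.36, 9.56 and 9.45, with no overlap. Per3 stood at 0.47 ± 0.11 (adjusted p 0.0634), Dbp at -0.27 ± 0.10 and Per1 at -0.02 ± 0.14, and the median of the list was -0.02. The hour of collection is not given in the labels used here. Each of the 3 calls was lost without any one of the healthy mice, at up to 0.143 for Arntl.

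Several of the largest falls belong to no list. Tnnc1, a troponin, lay between 8.80 and 9.84 in the EAE mice, with a median of 9.19, and at 9.94, 10.41, 10.22 and 10.64 in the healthy mice, and fell by 1.02 ± 0.20 (adjusted p 0.032). Myl4, a myosin light chain, fell by 0.73 ± 0.16 (adjusted p 0.0435), and its other probe set did not reach an unadjusted p under 0.05. Rpe65, the retinoid isomerase, lay at 8.05, 7.02, 7.36, 7.60, 7.32 and 7.53 in the EAE mice and at 8.33, 8.42, 8.51 and 8.48 in the healthy mice, and fell by 0.95 ± 0.16 (adjusted p 0.0215). Hpgd, which inactivates prostaglandins, fell by 0.75 ± 0.16, the orphan receptor gene Gpr153 fell by 0.77 ± 0.12, Pnma1 fell by 0.76 ± 0.17 and the transcript Gm35161 fell by 0.84 ± 0.10 (adjusted p 0.00903). The mean of the probe sets of Hpgd was -0.48 (adjusted p 0.0525). Each call was lost without healthy mouse 4, with adjusted p from 0.0531 for Gm35161 to 0.165 for Pnma1.

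Markers of neighbouring tissue were compared as a check of the dissection. Of 9 choroid plexus genes 0 were called and 9 lay above 0, with Ttr, transthyretin, at 0.24 ± 0.10 and a mean level of 6.96 to 7.30 in the EAE mice against 6.93 to 6.96. Of 8 striatum genes 0 were called, with a median of -0.18 and a mean level of 9.74 to 10.07 against 9.82 to 10.30. Of 10 thalamus and hippocampus genes 0 were called, with Prox1 at -0.54 ± 0.13 (adjusted p 0.0575), and of 5 blood genes 0 were called, with a median of 0.01. The part of these tissues in the results was not tested.

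The EAE effect was next compared between the regions within each mouse, which asks whether anything was particular to sensory cortex. Of the 441 genes called in sensory cortex, 170 were called in motor cortex in the same direction, 56 higher and 114 lower, which is 38.5% of the sensory and 41.5% of the 410 motor calls. No gene passed the test between the regions in limma's fit of the within-mouse difference (0 of 18193 at an adjusted p under 0.05, and 424 at an unadjusted p under 0.05, of which 304 were higher in sensory cortex). The fit was also run on simulated data with noise of the same SD in both groups. It recovered 53% of the genes changed by 0.5 log2 unit and 99% of those changed by 1. In the data, the 5 smallest p belonged to H2-Ab1, Spink8, Pappa2, Cxcl10 and Parp9. H2-Ab1 stood at 1.63 ± 0.38 in sensory and 1.08 ± 0.32 in motor cortex, a difference of 0.56 (95% interval 0.32 to 0.80, adjusted p 0.9999). Cxcl10 stood at 1.58 ± 0.39 and 0.69 ± 0.24, a difference of 0.89 (0.47 to 1.30), Parp9, an interferon responsive gene, at 0.59 ± 0.15 and 0.27 ± 0.12, Spink8 at 0.55 ± 0.11 (called in both regions) and 1.17 ± 0.15, and Pappa2 at 0.04 ± 0.09 and -0.74 ± 0.15. For 4 genes with large rises the difference was -0.24 (-0.63 to 0.15) for Plin4, 0.10 (-0.13 to 0.32) for Lrg1, -0.05 (-0.22 to 0.12) for Etnppl and 0.10 (-0.06 to 0.27) for Sult1a1.

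The cohorts were compared in the same way, with 3 EAE and 2 healthy mice in each. No gene passed the test of an EAE effect that differed between cohorts (0 of 18193 at an adjusted p under 0.05 in limma, and 625 at an unadjusted p under 0.05), and the 5 smallest p belonged to H2-T24, Lrrc10b, Tspan13, Sergef and Scnn1a. In data simulated with a difference of 1 log2 unit this fit recovered 66% of the changed genes, against 98% in the comparison of EAE with healthy mice. At a difference of 0.5 log2 unit it recovered 11%, against 68%. The simulated noise had the same SD in both groups and was independent between genes. In the data, SDs of the interferon-inducible GTPases ran from 0.76 to 1.38 between EAE mice and from 0.07 to 0.22 between healthy mice. The shares recovered do not describe genes with such spread. Within cohort 2 alone 136 genes were called and 4134 reached an unadjusted p under 0.05. Within cohort 1 alone 0 were called, 872 reached an unadjusted p under 0.05 (4.79%), and the lowest adjusted p was 0.109.

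The number of genes called changed with single mice, and beside the 17 genes above every called gene lost its call without at least 1 of them. It was 1011, 183, 497, 188, 106 and 253 without EAE mice 1 to 6, and 118, 48, 30 and 19 without healthy mice 1 to 4. Without EAE mouse 1, 438 of the 441 genes remained called, and without healthy mouse 4, 19 did. The array of healthy mouse 1 was the only sensory array of the second processing day, so that leaving out that day is the same as leaving out that mouse.

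**Figure D5:**
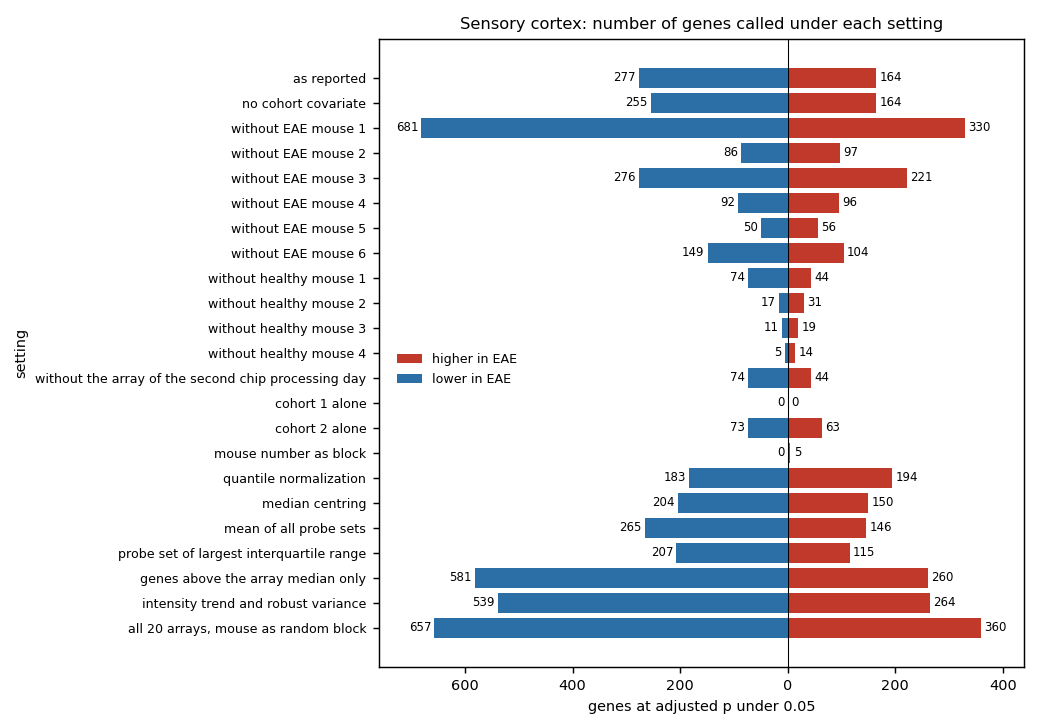
Number of genes at an adjusted p under 0.05 in sensory cortex, higher in EAE (red, to the right) and lower (blue, to the left), for the reported fit and each alternative. Leaving out EAE mouse 1 gave 330 rises and 681 falls, and leaving out healthy mouse 4 gave 14 and 5.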

How the data were processed

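RNA of sensory cortex was hybridised to 1 Affymetrix mouse array per mouse, and the deposited values of 45101 probe sets are log2 expression that the authors made with RMA in Partek, as the submitters' processing notes name them; the versions were not given in the sources used here. This step makes arrays alike in distribution and compresses differences at low signal. Gene names came from GEO's annotation of the platform, in which 34958 probe sets had 1 gene symbol, 932 had several and were left unnamed, and 9211 were not listed. A set of 64 control probe sets was left out. Each of 18193 genes was represented by its brightest probe set, by the mean of the 10 arrays. EAE and healthy mice were compared in limma (version 3.58.1, R 4.3.3), by lmFit and then eBayes, with cohort as a covariate and Benjamini-Hochberg adjustment over all 18193 genes, and a gene was called at an adjusted p under 0.05. Motor cortex was fitted in the same way. Differences between regions were fitted on sensory minus motor values of each mouse, and differences between cohorts as an interaction. The fits were tested on simulated data. Array precision is limited by the number of mice.

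The genes named are the 15 largest rises and 15 largest falls, up to 4 members with the smallest p and any called member of each of 53 gene lists, a fixed set of 23 markers, and the 5 smallest p of each difference test. Genes outside this rule are said to be so where they are named, or are neighbours and members chosen after their values were seen. Members and lists were chosen with earlier results of these data known. Of 771 list entries 708 were measured. Alternatives left out each mouse, changed the normalization, probe set, filter, variance model, covariate or samples, or used the mouse number as a block. Promoters of 300 bases came from a RefSeq table on GRCm38.p6. Python 3.11.15 with pandas 2.3.3 and matplotlib 3.10.9 made the tables and figures.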

Additional observations from a re-analysis of the deposited data

Results flagged for a closer look

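Of 368 groups of mice tested among the named genes, 11 (2.99%) held 1 mouse far from the rest of its group, and chance flags about 1 in 20 groups. In healthy mice, Vwf was low in mouse 1 (8.24), Ciita in mouse 3 (7.12), Gpr37 in mouse 3 (10.38), Slc40a1 in mouse 3 (9.21) and Ppard in mouse 4 (8.67). Cnp (13.88) and Ifitm3 (11.59) were high in healthy mouse 1. In EAE mice, Gpr153 was low in mouse 3 (8.95) and Plac8 (8.98), Cux2 (12.29) and Kcnn2 (10.16) were high in mouse 2.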

How the results depend on the processing

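No gene named changed direction where it was called, under any of 22 alternatives. Against 441 calls (164 higher and 277 lower), leaving out 1 mouse gave 19 to 1011 calls, 14 to 330 higher and 5 to 681 lower. Leaving out the second processing day gave 118 (44 and 74). Cohort 1 alone gave 0 calls (0 and 0) and cohort 2 alone 136 (63 and 73), each with fewer samples. Quantile normalization gave 377, with 194 higher and 183 lower, and median centring 354, with 42.4% higher; these moved the median of all genes by 0.016 and 0.019. Testing only genes above the array median gave 841 (260 and 581), a trended and robust variance 803 (264 and 539), and a fit of all 20 arrays 1017 (360 and 657). Why these settings gave more calls was not tested. With the mouse number as a replicate block the count was 5 (5 and 0): Etnppl, Plin4, Sult1a1, Lrg1 and Matn2. Same-numbered mice correlated from -0.25 to 0.40, and 1 of 4 healthy mice correlated best with its own number. So few mice cannot decide whether the numbers pair them. Number 3 belonged to cohort 1 among the EAE mice and to cohort 2 among the healthy mice. The differences between regions gave 0 calls under each alternative, including the replicate block, which was added after the data were seen. The difference between cohorts gave 0 with quantile normalization. Other probe sets and normalizations ended calls of named genes: 16 with the mean of all probe sets (adjusted p up to 0.386), 21 with the probe set of largest interquartile range (up to 0.928), 15 with quantile normalization (up to 0.0821), 12 with median centring (up to 0.0745) and 8 without the cohort covariate (up to 0.358). Of the 90 called genes named, 73 lost the call without healthy mouse 4 and 1 without EAE mouse 1.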

Other observations

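Plin4 and Lrg1, which rose by 1.59 ± 0.09 and by 1.51 ± 0.08, lie close together on chromosome 17 with Plin5 between them in the RefSeq gene order of GRCm38.p6. Plin5, another lipid droplet coat gene, stood at -0.01 ± 0.12 (95% interval -0.27 to 0.26, limma adjusted p 0.976) in sensory cortex and at 0.10 ± 0.06 in motor cortex. The genes on the far sides, Hdgfl2 and Sema6b, stood at -0.10 ± 0.05 and -0.08 ± 0.06. These neighbours were chosen after the values of Plin4 and Lrg1 were seen.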
